A study of Caenorhabditis elegans with 12 samples.

Results

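The 35 genes described here encode the folding, quality control and unfolded protein response (UPR) machinery of the endoplasmic reticulum (ER) of *Caenorhabditis elegans*. They were picked by gene symbol, and all 35 were found among the 46934 genes of the count table, each with enough reads to be tested. Adults were compared in 4 groups with 3 libraries in each. The genotypes were *hsf-1*(*sy441*) mutants of strain TTV450 and the wild-type strain N2. Heat-shocked animals of each genotype spent 30 min at 35 °C and recovered for 1 h at 20 °C, while untreated animals of each genotype stayed at 20 °C. All animals were at day 1 of adulthood, and whole worms fed *E. coli* OP50 were used, so germ line, embryos in the uterus and somatic tissues all contributed RNA. The *sy441* allele is considered to remove the transactivation domain of HSF-1, the main transcription factor of the heat shock response, without removing the gene.

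Proteins that enter the secretory pathway are translocated into the ER, glycosylated, folded with the help of calcium-binding chaperones and oxidised to form disulfide bonds. Molecules that do not fold are pulled back through the membrane, ubiquitylated and degraded, a route called ER-associated degradation (ERAD). When unfolded proteins build up, sensors in the ER membrane start the UPR, which in *C. elegans* raises the transcription of many of these genes, with the intestine as a main site. HSF-1 acts on the parallel response of the cytosol, so the comparison of mutants with wild type asks how the ER genes stand when the cytosolic factor is compromised, and the comparison of heat-shocked with untreated animals asks how they respond to a brief heat shock.

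Total counts per library ran from 68188334 to 109248499. Levels are given below in CPM, the reads of a gene per 1000000 reads of the library, after TMM scaling, which corrects for differences in library composition, and a gene is called higher or lower where the edgeR quasi-likelihood test gave a Benjamini-Hochberg adjusted p under 0.05 over 17946 genes. Replicates are called biological in the labels, but separate cultures are not stated, so the spread behind each p-value is that among these libraries and may be technical. *hsf-1* itself had 76.6, 129 and 101 CPM in heat-shocked mutants, 83.4, 109 and 86.4 CPM in untreated mutants, 95.8, 114 and 126 CPM in heat-shocked N2 and 154, 146 and 67.6 CPM in untreated N2. These counts overlap and cannot check a change that leaves the gene in place. The summed level of 6 heat shock genes was 1274 to 7944 CPM in the heat-shocked libraries and 80.0 to 156 CPM in the untreated ones. Untreated N2 replicate 3 stood apart from the other untreated N2 libraries, with a summed level of 10 oocyte and germ line markers of 3699 CPM against 8863 and 10055 CPM. Heat-shocked N2 replicate 1 differed from its group in the same direction (5537 CPM against 8179.9 and 8828 CPM), and replicate 1 of both mutant groups carried 7.24% and 7.39% ribosomal RNA, against at most 4.04% elsewhere.

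Several lists of tissue markers moved with genotype. The summed level of 10 body wall muscle genes was 2244 to 3132 CPM in mutant libraries and 872 to 1543 CPM in N2 libraries, with 9 of the 10 genes higher in every mutant library than in any N2 library. All 10 sperm genes were higher in the same sense (26.6 to 79.5 CPM in mutants and 1.09 to 7.90 CPM in N2), 6 of them at 0 in some library. For 9 intestinal genes the sums were 25397 to 62319 CPM in mutants and 7288 to 26691 CPM in N2, mostly from *vit-2*, *vit-5* and *vit-6*. Of the 9, 4 (*ges-1*, *ifb-2*, *act-5* and *asp-1*) were higher in every mutant library than in any N2 library. The highest value of *mtl-2* was that of untreated N2 replicate 3, at 97.3 CPM. The sums for 8 hypodermal and cuticle genes were 1536 to 2439.6 CPM in mutants and 653 to 1504 CPM in N2, mostly from *col-19*, *col-119* and *col-140*. The list was split, with 1 gene (*col-140*) higher and 1 (*rol-6*) lower in every mutant library than in any N2 library. The sums for the oocyte and germ line genes were 5587 to 8307 CPM in mutants and 3699 to 10055 CPM in N2. Neurons (8 genes) had 302 to 428 CPM in mutants and 292 to 358 CPM in N2, and coelomocytes (2 genes) had 1.91 to 4.11 and 1.98 to 5.82 CPM. No marker of muscle, intestine, hypodermis or germ line was at 0. In whole animals, fewer cells of a type and less RNA per cell cannot be told apart, and the part of tissue composition in the genotype differences below was not tested.

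Within the group of 35, levels differed widely. Divided by exon length, the mean over the 12 libraries was highest for *crt-1*, which encodes the calcium-storing lectin chaperone calreticulin, at 596 CPM per kilobase. It was followed by *trap-4* (464) and *dad-1* (441), subunits of the translocon-associated protein complex and of the oligosaccharyltransferase, and by the protein disulfide isomerase gene *pdi-3* (415). The ranges of *crt-1* (299 to 878 CPM per kilobase), *trap-4* (348 to 576), *dad-1* (268 to 749) and *pdi-3* (320.4 to 528) overlapped over the libraries, so the order among these neighbours is not beyond their spread. The lowest levels belonged to *pek-1* (16.7 CPM per kilobase), *uggt-1* (16.6), *atf-6* (6.08) and *uggt-2* (0.172). Of these, *atf-6* and *uggt-2* lay below the ranges of all other members, *uggt-2* at 0.0261 to 0.336 and *atf-6* at 3.42 to 7.87 CPM per kilobase, apart from the lowest library of *pek-1* at 5.61. Together the 35 genes summed to between 5925 and 10660 CPM per library after TMM scaling. The lowest sum was that of untreated N2 replicate 3, in which 31 of the 35 members lay below both other untreated N2 libraries and 4 (*dad-1*, *der-2*, *ckb-2* and *uggt-2*) above them, with a median log2 ratio of -0.60 over the members. The spread of members within a group was largest in untreated N2, where the median coefficient of variation was 27.8%, against 10.4% in untreated mutants, 18.2% in heat-shocked mutants and 17.3% in heat-shocked N2.

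**Figure D1:**
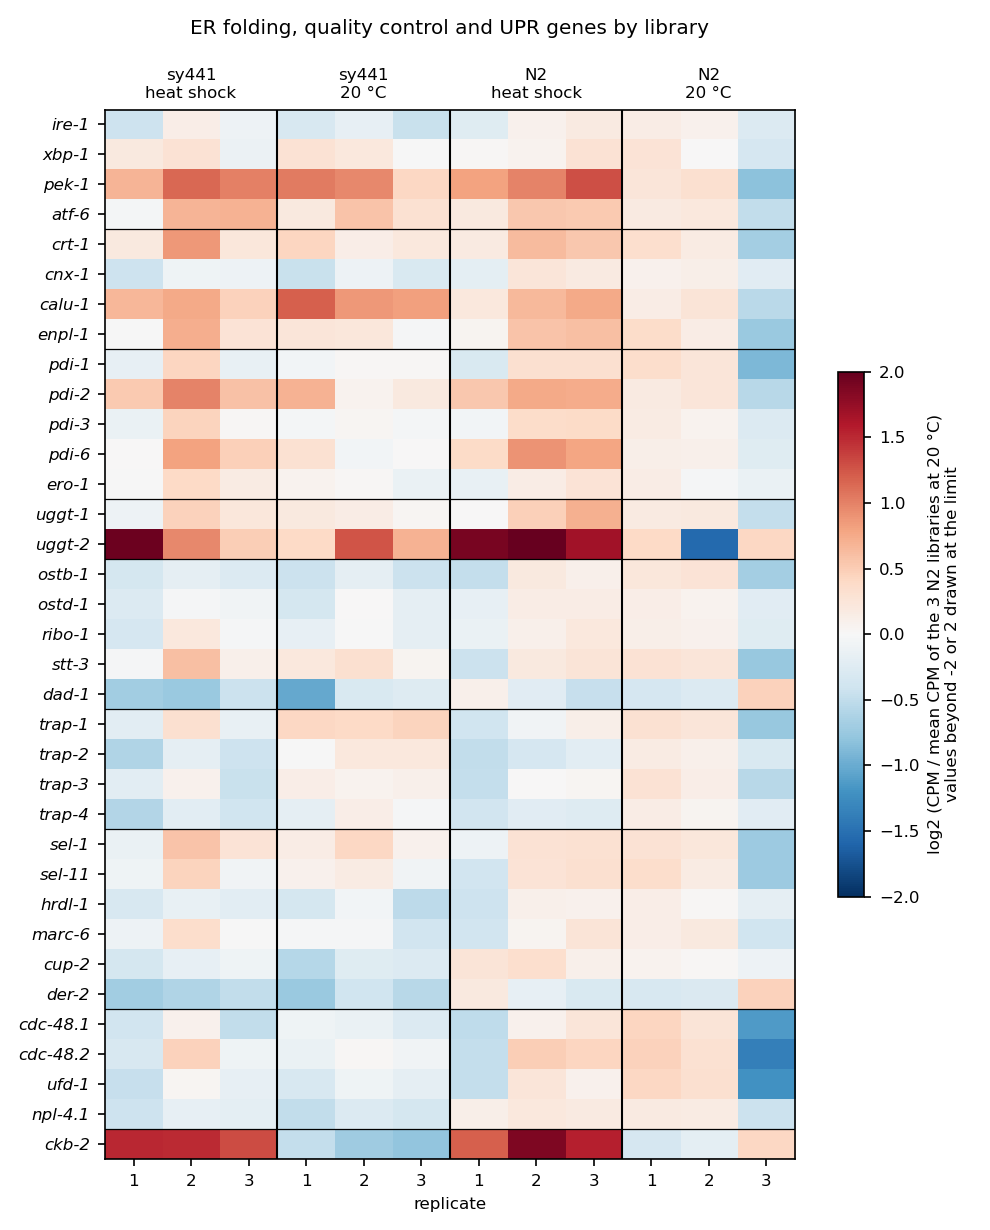
Heat map of the 35 members (rows, ordered by role, lines between roles) in the 12 libraries (columns, 3 replicates per group). Colour gives the log2 ratio of CPM to the mean of the 3 untreated N2 libraries. *ckb-2* is red in all 6 heat-shocked libraries, and in untreated N2 replicate 3, 31 of the 35 members lie below replicates 1 and 2.

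Few members passed the test in any comparison. In mutants against N2 at 20 °C, 1 of the 35 was higher (*calu-1*) and none was lower, while 6.24% of all tested genes were higher and 0.591% were lower. At an unadjusted p under 0.05 the counts were 2 higher (*calu-1* and *pek-1*) and 2 lower (*ckb-2* and *der-2*). Over all 17946 genes they were 3251 and 1168. DESeq2 called *calu-1* as higher and *ckb-2* as lower, and over all genes 1940 higher and 615 lower of 19652. After heat shock no member differed between mutants and N2 by edgeR, against 2.32% of all genes higher and 0.379% lower. At the unadjusted threshold 0 members were higher and 3 (*cup-2*, *der-2* and *npl-4.1*) were lower, against 2364 and 1012 of all genes. DESeq2 called 0 members, and over all genes 1214 higher and 303 lower. Heat shock raised 1 member, *ckb-2*, in mutants (background 0.279% higher, 0.29% lower) and the same gene in N2 (0.78% higher, 0.223% lower). At the unadjusted threshold 1 member was higher and 1 lower (*trap-2*) in mutants, and 6 were higher and 0 lower in N2 (*ckb-2*, *pek-1*, *uggt-2*, *pdi-6*, *pdi-2* and *calu-1*). Over all genes these counts were 534 higher and 690 lower in mutants, and 958 and 457 in N2. Among the members, DESeq2 called *ckb-2* alone in mutants, and *ckb-2*, *pek-1* and *uggt-2* in N2. Over all genes it called 186 higher and 234 lower in mutants, and 360 and 170 in N2. The difference between the heat shock effects of the genotypes, tested as an interaction, was called for 0 members by edgeR and 0 by DESeq2, with 0 higher and 2 lower (*calu-1* and *pek-1*) at an unadjusted p under 0.05. Over all genes edgeR called it for 0% as higher and 0.0111% as lower, with 106 higher and 349 lower at an unadjusted p under 0.05. DESeq2 called 4 genes higher and 29 lower. The mean of both genotype contrasts, which uses the same libraries again as 6 against 6, called *calu-1* higher and *der-2* and *cup-2* lower (background 15.2% higher, 5.34% lower). The mean of both heat shock contrasts called *ckb-2* higher (1.52% higher, 1.32% lower). A single call among 35 is above the share of all genes that were higher with heat shock and below the share that were higher in mutants. The 2 of 35 lower in mutants in the mean contrast are near the background share.

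The median log2 fold change of the members for mutants over N2 was -0.0076 at 20 °C and -0.11 after heat shock, where the median over all tested genes was 0.13 and 0.04. For heat-shocked over untreated animals it was 0.08 in mutants and 0.11 in N2, and over all genes it was -0.0032 and 0.05. The genotype medians depend on scaling. With untreated N2 replicate 3 as the reference library of TMM the median of all genes in mutants over N2 at 20 °C was -0.08, with RLE size factors 0.03, and with the reference library that edgeR chose (heat-shocked N2 replicate 3) 0.13. Relative to the median of all genes, the members' median stood at -0.14 with the chosen reference, -0.15 with the other and -0.14 with RLE, and 23 of the 35 members lay below the median of all genes under each of the 3. After heat shock 28 of 35 did under each. Single libraries moved this distance. At 20 °C it was -0.42 without untreated N2 replicate 3, -0.0064 without untreated N2 replicate 1, -0.06 without untreated N2 replicate 2 and -0.06 without untreated mutant replicate 1. After heat shock it was -0.15 with all libraries, -0.34 without heat-shocked N2 replicate 1, -0.29 without heat-shocked mutant replicate 2 and -0.02 without heat-shocked mutant replicate 1. The heat shock medians turned negative without heat-shocked mutant replicate 2 in mutants (-0.06) and without heat-shocked N2 replicate 3 in N2 (-0.07). Relative to the median of all genes, the heat shock median in N2 was 0.06 with all libraries. It was -0.10 without untreated N2 replicate 3 and 0.20 without untreated N2 replicate 1. In mutants it was 0.08, and -0.02 without heat-shocked mutant replicate 2 and 0.20 without heat-shocked mutant replicate 1. Differences between genotypes are therefore also given below relative to the median of all genes.

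**Figure D2:**
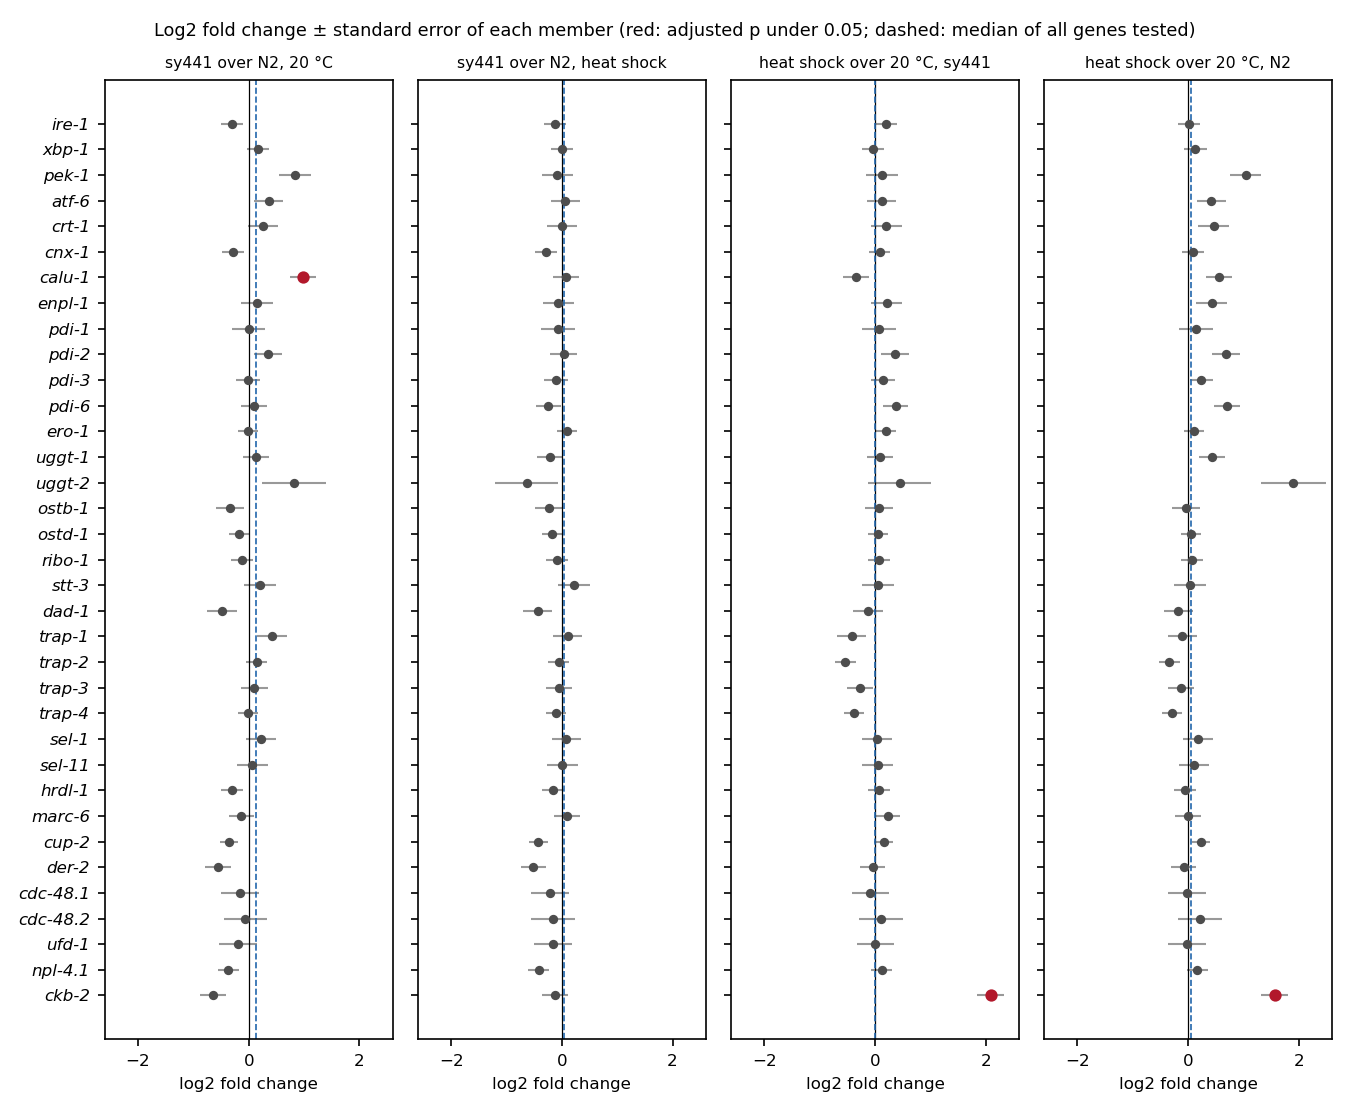
Log2 fold change of each member (points) with its standard error (bars) in 4 comparisons, mutants over N2 in the first pair of panels and heat-shocked over untreated animals in the other pair. Red points passed an adjusted p of 0.05 (*calu-1* at 20 °C, *ckb-2* with heat shock in each genotype), and the dashed line is the median of all tested genes.

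The sensors and transcription factors of the UPR were *ire-1*, whose product is a kinase and endoribonuclease that splices *xbp-1* mRNA, *xbp-1*, which encodes the transcription factor made from the spliced message, *pek-1*, the PERK kinase that phosphorylates eIF2α, and *atf-6*, a membrane-bound transcription factor. None of the 4 was called by edgeR with all 12 libraries. Gene counts do not separate spliced from unspliced *xbp-1* mRNA, and phosphorylation is not seen in RNA, so the levels say nothing of the activity of these proteins. *xbp-1* (WBGene00006959, chromosome III, 4193809 to 4195358 of WBcel235, as for all positions below), the highest of the 4 per length, had 216, 231 and 174 CPM in heat-shocked mutants, 230.5, 219 and 188 CPM in untreated mutants, 193, 198 and 232 CPM in heat-shocked N2 and 228, 190.4 and 149.8 CPM in untreated N2. These values overlap in every comparison, and its log2 fold changes lay between -0.04 (heat shock in mutants) and 0.16 (mutants over N2 at 20 °C, standard error 0.20, edgeR adjusted p = 0.690).

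*pek-1* (WBGene00003970, chromosome X, 11410176 to 11414887) differed most among the sensors. It had 58.6, 81.4 and 73.2 CPM in heat-shocked mutants and 75.4, 71.0 and 48.9 CPM in untreated mutants, which overlap. In heat-shocked N2 it had 63.6, 72.5 and 89.3 CPM, above all untreated N2 libraries with 43.1, 45.8 and 20.8 CPM, and the untreated mutants were also above untreated N2. The low group was thus untreated N2, with its lowest value in replicate 3. Neither difference passed the test by edgeR, for heat shock in N2 (log2 fold change 1.04 ± 0.29 SE, edgeR adjusted p = 0.151) or for mutants against N2 at 20 °C (log2 fold change 0.83 ± 0.29 SE, edgeR adjusted p = 0.0933). DESeq2 called the heat shock difference in N2 (log2 fold change 1.02, adjusted p = 0.0336). The heat shock effect in mutants minus that in N2 was -0.91 on the log2 scale (unadjusted p = 0.0405, edgeR adjusted p = 1.00). Without untreated N2 replicate 3, the log2 fold change of heat shock in N2 was 0.77 (edgeR adjusted p = 0.128), and that of mutants over N2 at 20 °C was 0.57 (edgeR adjusted p = 0.103). The 20 °C value was 0.52 without untreated mutant replicate 1 (edgeR adjusted p = 0.471).

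*ire-1* (WBGene00002147, chromosome II, 8112243 to 8124910) had 129.8, 188 and 161 CPM in heat-shocked mutants, 138, 153 and 126 CPM in untreated mutants, 146, 183 and 194 CPM in heat-shocked N2 and 190.5, 184 and 143 CPM in untreated N2. The groups overlap, untreated mutants and untreated N2 only through replicate 3 of N2, and the largest difference was that for mutants over N2 at 20 °C (log2 fold change -0.31 ± 0.20 SE, edgeR adjusted p = 0.388). The gene lies opposite *unc-105* over 6456 bases, of which 4 are exonic in both. *atf-6* (WBGene00000222, chromosome X, 12480948 to 12484904) had 11.3, 18.6 and 18.9 CPM in heat-shocked mutants, 13.3, 17.2 and 14.3 CPM in untreated mutants, 13.3, 16.8 and 16.6 CPM in heat-shocked N2 and 13.1, 13.5 and 8.23 CPM in untreated N2. It was low in all libraries, lowest in untreated N2 replicate 3, and the largest difference was that for heat shock in N2 (log2 fold change 0.42 ± 0.26 SE, edgeR adjusted p = 0.866).

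Among the calcium-binding chaperones and lectins, *calu-1*, which encodes calumenin, a calcium-binding protein with EF-hands found along the secretory route, was higher in mutants than in N2 at 20 °C. *calu-1* (WBGene00019760, chromosome X, 4969529 to 4970913) had 203, 162 and 156 CPM in untreated mutants and 98.4, 106 and 60.8 CPM in untreated N2, so that the lowest mutant library stood above the highest N2 library. This was a 1.96-fold difference (log2 fold change 0.97 ± 0.23 SE, edgeR adjusted p = 0.0284). After heat shock the genotypes overlapped, with 139, 149 and 121.5 CPM in mutants and 102, 138 and 150.0 CPM in N2 (log2 fold change 0.07 ± 0.23 SE, edgeR adjusted p = 0.931). Heat-shocked mutants lay below all untreated mutants (log2 fold change -0.34, edgeR adjusted p = 1.00), whereas heat-shocked N2 overlapped untreated N2 only through replicate 1 (log2 fold change 0.56, edgeR adjusted p = 0.521). The N2 value was 0.34 without heat-shocked replicate 3 and 0.36 without untreated replicate 3. The heat shock effect in mutants minus that in N2 was -0.90 on the log2 scale, with a standard error of 0.33 and an unadjusted p of 0.0165, and did not pass adjustment (edgeR adjusted p = 1.00).

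The call of *calu-1* at 20 °C depended on single libraries and on the reference library of TMM. Without untreated mutant replicate 1, the highest, the log2 fold change was 0.65 (edgeR adjusted p = 0.262), and without untreated mutant replicate 3 it was 0.80 (edgeR adjusted p = 0.139). Without untreated N2 replicate 1 or 2 it was 0.85 or 0.89 (edgeR adjusted p = 0.120 and 0.110), and without untreated N2 replicate 3, the lowest, it was 0.79 (edgeR adjusted p = 0.0295). Leaving out a heat-shocked library, which is no part of this comparison, also ended the call in 4 of 6 fits. In these 4 edgeR took untreated N2 replicate 3 as the reference library of TMM in place of heat-shocked N2 replicate 3. It did the same without untreated mutant replicate 1 or 3 and without untreated N2 replicate 1 or 2. With the original reference kept, the call held in 8 of the 11 fits that left out another library, with values from 0.76 to 1.13, and was lost without untreated mutant replicate 1 or 2 or untreated N2 replicate 1. With untreated N2 replicate 3 as reference and all 12 libraries the log2 fold change was 0.74 (edgeR adjusted p = 0.0864). Relative to the median of all genes *calu-1* stood at 0.84 with the chosen reference, 0.83 with untreated N2 replicate 3 as reference and 0.84 with RLE factors. In the mean of both genotype contrasts the log2 fold change was 0.52 (edgeR adjusted p = 0.0400). Scaling alone ended this call, at 0.46 with RLE factors and 0.35 with untreated N2 replicate 3 as reference (edgeR adjusted p = 0.0582 and 0.180). It passed the threshold in 3 of 12 fits that left out a library, with values from 0.26 to 0.56. The values moved by over 1.5 times were those without heat-shocked N2 replicate 1 (0.26), heat-shocked mutant replicate 2 (0.30) and untreated mutant replicate 1 (0.30), with edgeR adjusted p = 0.323, 0.298 and 0.312. These fits too had untreated N2 replicate 3 as reference. With the original reference kept, the values ran from 0.42 to 0.60, and 3 of 11 fits passed the threshold.

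The other genes of this role were not called by edgeR with all 12 libraries. *crt-1* (WBGene00000802, chromosome V, 6098992 to 6100542) had 768, 1230.2 and 792 CPM in heat-shocked mutants, 903, 735 and 780.3 CPM in untreated mutants, 763, 1041 and 981 CPM in heat-shocked N2 and 847, 753 and 419 CPM in untreated N2. The groups overlap in all comparisons, and untreated N2 replicate 3 is the lowest of the 12. Heat shock gave a log2 fold change of 0.21 in mutants (standard error 0.28, edgeR adjusted p = 1.00) and of 0.46 in N2 (standard error 0.28, edgeR adjusted p = 0.844). *enpl-1*, the gene of the ER HSP90 chaperone endoplasmin, had log2 fold changes of 0.21 and 0.43 for heat shock in mutants and in N2, and *cnx-1*, the gene of the membrane-bound lectin calnexin, had 0.08 and 0.09. For *cnx-1* the log2 fold change of mutants over N2 was -0.28 at 20 °C and -0.28 after heat shock (edgeR adjusted p = 0.420 and 0.480).

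The genes of oxidative folding, 4 protein disulfide isomerases and the oxidase *ero-1* that recharges them, all had positive log2 fold changes with heat shock in both genotypes, but none was called by edgeR, and only *pdi-6* and *pdi-2* in N2 had an unadjusted p under 0.05. The 5 values ran from 0.07 to 0.37 in mutants and from 0.10 to 0.71 in N2, with medians of 0.20 and 0.24. The sign was positive for all 5 with RLE factors and with untreated N2 replicate 3 as reference as well, but not in every fit that left out a library. Without heat-shocked mutant replicate 2, *pdi-1* and *pdi-3* were negative in mutants (-0.17 and -0.06). In N2 *ero-1* and *pdi-1* were negative without heat-shocked replicate 3, and *pdi-1* without untreated replicate 3. *pdi-6* and *pdi-2* stood at the upper end and were picked out after their values were seen. *pdi-6* had 174, 304 and 244 CPM in heat-shocked mutants, 215, 167 and 176 CPM in untreated mutants, 228, 325 and 301 CPM in heat-shocked N2 and 189, 187 and 147 CPM in untreated N2. The N2 groups did not overlap, while in mutants heat-shocked replicate 1 lay within the untreated values. Over both genotypes its log2 fold change with heat shock was 0.54 (standard error 0.16, edgeR adjusted p = 0.123), and DESeq2 called it (adjusted p = 0.0377). edgeR also called it without untreated N2 replicate 3 and heat-shocked N2 replicate 1 (log2 fold change 0.55, adjusted p = 0.0487) and without replicate 1 of both mutant groups (0.66, adjusted p = 0.0424).

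*pdi-2* had 394, 548 and 411 CPM in heat-shocked mutants, 445, 287 and 315 CPM in untreated mutants, 399, 464 and 459 CPM in heat-shocked N2 and 311, 326 and 187 CPM in untreated N2, again with no overlap in N2 and with overlap in mutants, where untreated replicate 1 was high. Its log2 fold change with heat shock over both genotypes was 0.53 (edgeR adjusted p = 0.183). *pdi-3* (WBGene00003964, chromosome I, 7015908 to 7020797), the highest of the role per length, had 604, 900.0 and 678 CPM in heat-shocked mutants, 643, 685 and 649 CPM in untreated mutants, 637, 855 and 861 CPM in heat-shocked N2 and 744, 699.9 and 547 CPM in untreated N2. Its groups overlap throughout, with log2 fold changes of 0.14 for heat shock in mutants (standard error 0.22, edgeR adjusted p = 1.00) and 0.24 in N2 (standard error 0.22, edgeR adjusted p = 1.00). The remaining genes, *pdi-1* and *ero-1*, had 0.07 and 0.20 in mutants and 0.14 and 0.10 in N2. Between genotypes, mutants over N2, the 5 log2 fold changes ran from -0.0097 to 0.35 at 20 °C and from -0.24 to 0.09 after heat shock.

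*uggt-1* and *uggt-2* encode UDP-glucose:glycoprotein glucosyltransferases, the enzymes that mark glycoproteins that are not yet folded for another round of lectin binding. *uggt-1* (WBGene00018604, chromosome X, 7495694 to 7500982) carried nearly all of the reads of the pair, with 63.5, 93.6 and 79.9 CPM in heat-shocked mutants, 78.0, 75.4 and 70.4 CPM in untreated mutants, 68.6, 95.2 and 112 CPM in heat-shocked N2 and 77.4, 77.9 and 49.1 CPM in untreated N2. It was not called, and the largest difference was that for heat shock in N2 (log2 fold change 0.43 ± 0.24 SE, edgeR adjusted p = 0.791). *uggt-2* (WBGene00009178, chromosome I, 9317713 to 9327279) was at 1.29, 0.642 and 0.465 CPM in heat-shocked mutants, 0.434, 0.786 and 0.536 CPM in untreated mutants, 1.23, 1.44 and 1.05 CPM in heat-shocked N2 and 0.436, 0.112 and 0.441 CPM in untreated N2. Only heat-shocked N2 stood clear of its untreated group, and among heat-shocked mutants replicate 1 alone was high. These levels rest on 8 to 65 reads per library in untreated animals, whereas no other member had fewer than 727. edgeR did not call the difference in N2 (log2 fold change 1.90 ± 0.59 SE, edgeR adjusted p = 0.232), and DESeq2 did (adjusted p = 0.0488). The heat-inducible gene *hsp-70* lies on the opposite strand within *uggt-2* over 2195 bases, sharing no exon base with it. It had 295, 82.5 and 128 CPM in heat-shocked mutants and 8.22, 5.32 and 3.94 CPM in untreated mutants, and 362, 393 and 478 CPM in heat-shocked N2 and 6.04, 8.54 and 5.06 CPM in untreated N2. For both genes the 4 highest libraries were the 3 heat-shocked N2 libraries and heat-shocked mutant replicate 1. The strand setting of the counts is not given in the sources used here, and the part of *hsp-70* reads in the *uggt-2* values was not tested.

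The 5 genes of the oligosaccharyltransferase, which transfers the glycan to proteins entering the ER, had heat shock values of both signs. Their log2 fold changes ran from -0.13 to 0.08 in mutants and from -0.18 to 0.06 in N2. They included the catalytic subunit *stt-3* and the accessory subunits *ostb-1*, *ostd-1*, *ribo-1* and *dad-1*, and none was called by edgeR with all 12 libraries and the reference library it chose. *dad-1* (WBGene00000896, chromosome I, 6553481 to 6554290), the highest per length, had 160.1, 155 and 192 CPM in heat-shocked mutants and 278, 221 and 187 CPM in heat-shocked N2, and 128, 210.0 and 215 CPM in untreated mutants and 204, 215 and 356 CPM in untreated N2. Its genotypes overlapped under both conditions, and the highest values were those of untreated N2 replicate 3 and heat-shocked N2 replicate 1. In the mean of both genotype contrasts it stood at -0.46 (standard error 0.19, edgeR adjusted p = 0.100). The value was -0.23 (edgeR adjusted p = 0.235) without those libraries. With untreated N2 replicate 3 as reference of TMM it was called as lower (-0.62, edgeR adjusted p = 0.0352), and it passed the threshold in 5 of 31 alternative fits. The other 4 left out a library, and in each edgeR took that same reference. With heat-shocked N2 replicate 3 kept as reference, *dad-1* passed in 0 of the 11 fits that left out another library. Of the other subunits, *stt-3* had a log2 fold change of 0.21 in the mean of both genotype contrasts, and *ostb-1*, *ostd-1* and *ribo-1* had -0.29, -0.17 and -0.10.

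The 4 genes of the translocon-associated protein (TRAP) complex, which sits beside the protein-conducting channel, were the only role among the members in which every member had a negative log2 fold change with heat shock in both genotypes. The values ran from -0.54 to -0.27 in mutants (median -0.40) and from -0.34 to -0.10 in N2 (median -0.21), while the 31 other members included genes of both signs. All 4 stayed negative, and below the median of all genes, with RLE factors, with untreated N2 replicate 3 as reference and without untreated N2 replicate 3 and heat-shocked N2 replicate 1. In mutants they were also negative in each fit that left out a library. In N2 *trap-1* was positive without untreated replicate 1 (0.0099), and with the reference of TMM kept *trap-1* and *trap-3* were positive without untreated replicate 1 or heat-shocked replicate 1, and *trap-1* without untreated replicate 2. None passed the test of edgeR when all 12 libraries were fitted. *trap-2* was nearest to it and was picked out after its values were seen.

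*trap-2* (WBGene00020216, chromosome X, 767023 to 768069) had 91.1, 122.3 and 104 CPM in heat-shocked mutants, below all untreated mutants with 138, 161 and 161 CPM. In N2 it had 98.6, 110.3 and 120.2 CPM after heat shock and 155, 149 and 112 CPM without, where the groups overlap through untreated replicate 3. Its log2 fold change with heat shock was -0.54 in mutants (standard error 0.19, edgeR adjusted p = 0.405) and -0.34 in N2 (edgeR adjusted p = 0.800). A fit of the mutants alone was chosen after seeing the data, and blocked by replicate number because same-numbered mutant libraries deviated together. In it *trap-2* was called as lower (log2 fold change -0.52, edgeR adjusted p = 0.0343). Over both genotypes the value was -0.44 (edgeR adjusted p = 0.129), DESeq2 called it (adjusted p = 0.0476), and edgeR called it without untreated N2 replicate 3 (log2 fold change -0.51, adjusted p = 0.0155).

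*trap-4* (WBGene00013238, chromosome III, 11920735 to 11921586), the highest of the complex per length, had 232, 298 and 261 CPM in heat-shocked mutants and 305, 380.3 and 341 CPM in untreated mutants, and 267, 295 and 290.2 CPM in heat-shocked N2 and 383, 358 and 297 CPM in untreated N2. Heat-shocked libraries lay below all untreated ones in each genotype, in N2 by a small margin to untreated replicate 3. The difference was -0.38 in mutants (standard error 0.18, edgeR adjusted p = 0.796) and -0.29 in N2 (standard error 0.18, edgeR adjusted p = 0.884) on the log2 scale. *trap-1* had 216, 314 and 226 CPM in heat-shocked mutants, below untreated mutants at 337, 332 and 344 CPM, and 192, 239 and 271 CPM in heat-shocked N2 with overlap to 309, 296 and 149 CPM in untreated N2. *trap-3* overlapped in both genotypes, with log2 fold changes of -0.27 in mutants and -0.12 in N2. The gaps of *trap-1* and *trap-2* between heat-shocked and untreated mutants are not matched in N2, but no interaction was called for any of the 4 (log2 values from -0.32 to -0.09, edgeR adjusted p = 1.00 for each).

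**Figure D3:**
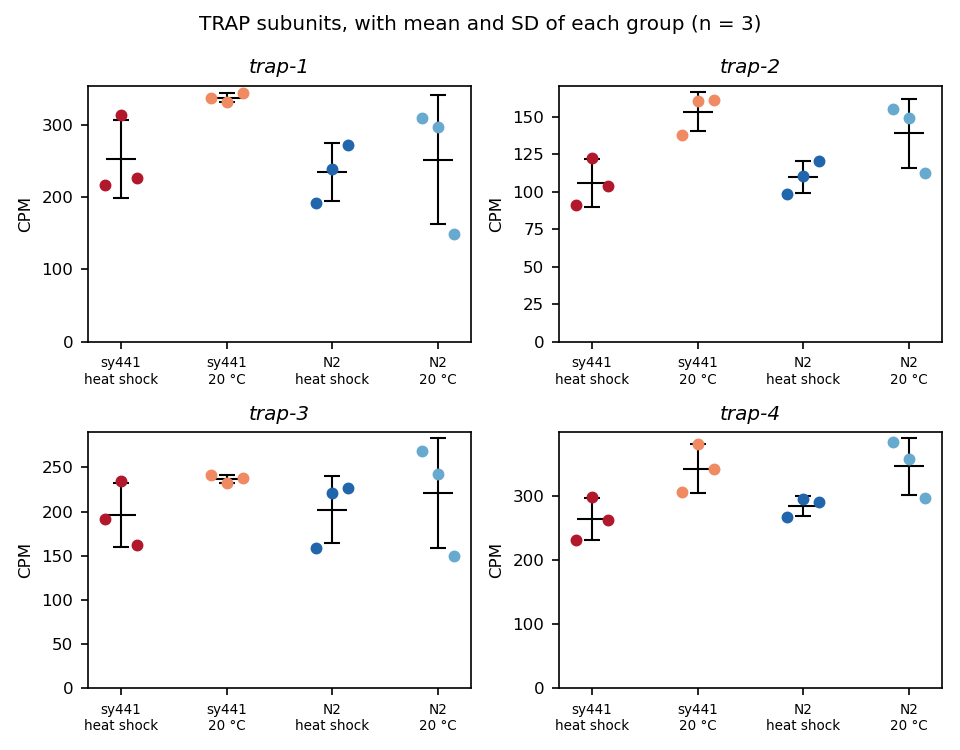
CPM of the 4 TRAP subunits in each library (points), with the mean and SD of each group (bars, n = 3) and the vertical axis starting at 0. Heat-shocked mutants lie below untreated mutants for *trap-1*, *trap-2* and *trap-4*, and in N2 the groups are separate only for *trap-4*.

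In the ERAD membrane machinery, the derlin genes *cup-2* and *der-2* were lower in mutants than in N2 over both conditions. Derlins are membrane proteins that help to draw misfolded proteins out of the ER. *cup-2* (WBGene00000843, chromosome I, 10398990 to 10400177) had 144, 165 and 174 CPM in heat-shocked mutants and 219, 232 and 198 CPM in heat-shocked N2, and 124, 155 and 152 CPM in untreated mutants and 194, 187 and 171 CPM in untreated N2. Every mutant library lay below every N2 library of its condition. The log2 fold change was -0.43 after heat shock and -0.36 at 20 °C, neither called (edgeR adjusted p = 0.200 and 0.220), and -0.39 in their mean (0.762 times the level of N2, standard error 0.12, edgeR adjusted p = 0.0366). *der-2* (WBGene00020109, chromosome III, 7221741 to 7223129) had 58.9, 63.3 and 67.8 CPM in heat-shocked mutants and 109, 85.0 and 77.4 CPM in heat-shocked N2, and 57.5, 72.6 and 65.5 CPM in untreated mutants and 76.8, 78.7 and 132 CPM in untreated N2. It too was lower in every mutant library of each condition, and its high values were those of untreated N2 replicate 3 and heat-shocked N2 replicate 1. Its log2 fold change was -0.52 after heat shock, -0.55 at 20 °C and -0.53 in their mean (0.690 times the level of N2, standard error 0.16, edgeR adjusted p = 0.0331). At 20 °C, where *der-2* was not called (edgeR adjusted p = 0.153), the value was -0.24 without untreated N2 replicate 3, -0.87 without replicate 1 and -0.88 without replicate 2 (edgeR adjusted p = 0.363, 0.0818 and 0.0810). Without replicate 1 or 2 edgeR also took untreated N2 replicate 3 as reference of TMM. With heat-shocked N2 replicate 3 kept as reference, the value ran from -0.69 to -0.25 over 11 fits that left out another library.

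Both calls were close to the threshold. Without untreated N2 replicate 3 and heat-shocked N2 replicate 1 they held, at -0.41 for *cup-2* and -0.31 for *der-2* (edgeR adjusted p = 0.0138 and 0.0407). Without heat-shocked N2 replicate 2 neither held (-0.37 and -0.56, edgeR adjusted p = 0.0958 and 0.0572), and without heat-shocked mutant replicate 3 *der-2* did not (-0.58, edgeR adjusted p = 0.0670). With the reference library of TMM kept at heat-shocked N2 replicate 3, *cup-2* passed the threshold in 1 and *der-2* in 4 of the 11 fits that left out another library. With untreated N2 replicate 3 as reference the values were -0.56 and -0.69 (edgeR adjusted p = 0.0149 and 0.0103). Relative to the median of all genes, *cup-2* stood at -0.48 and *der-2* at -0.62 with the chosen reference and at -0.48 and -0.61 with the other.

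The remaining ERAD membrane genes were *sel-1*, which encodes the adaptor of the HRD1 ligase, *sel-11*, the HRD1 ubiquitin ligase itself, *hrdl-1*, a further ligase of that family, and *marc-6*, a membrane-bound RING ligase. None was called by edgeR with all 12 libraries. Over the 4 of them the log2 fold change of mutants over N2 ran from -0.30 (*hrdl-1*) to 0.22 (*sel-1*) at 20 °C and from -0.17 to 0.09 after heat shock. With heat shock it ran from 0.04 to 0.23 in mutants and from -0.06 to 0.18 in N2.

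**Figure D4:**
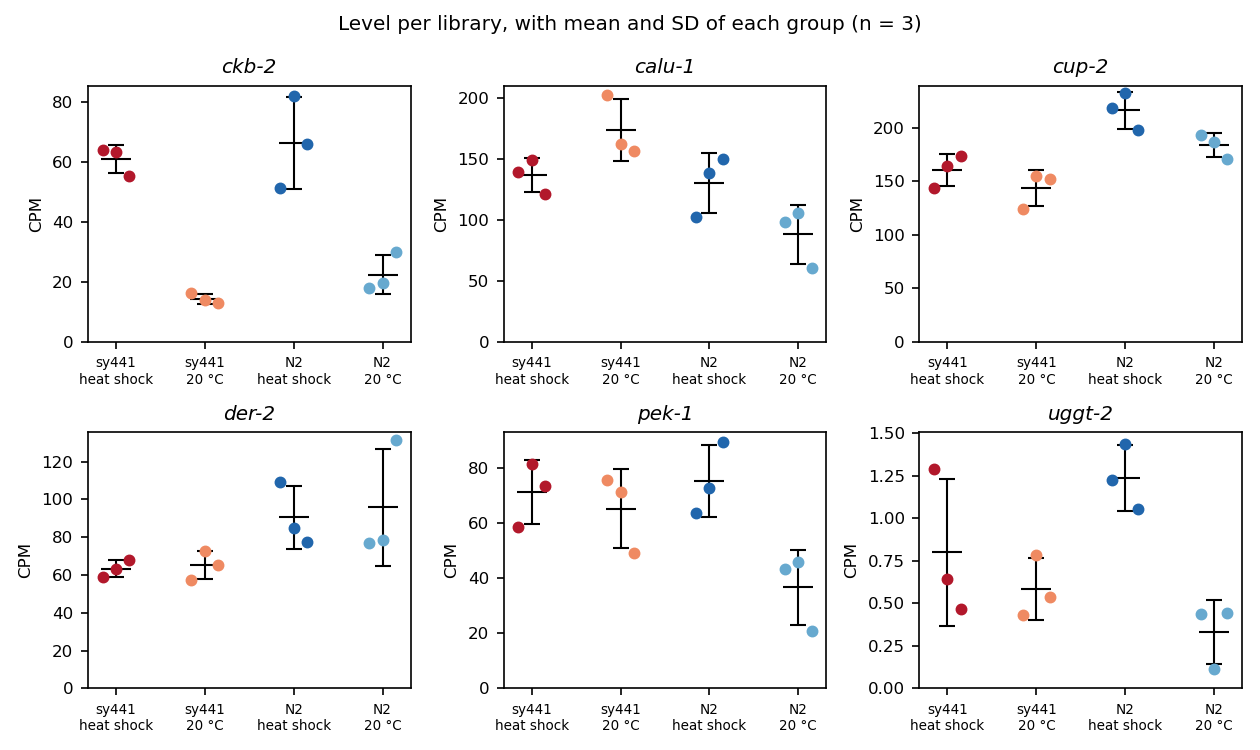
CPM of 6 members in each library (points), with the mean and SD of each group (bars, n = 3) and vertical axes starting at 0. *ckb-2* is separated by heat shock in each genotype, *calu-1* by genotype at 20 °C, and *cup-2* and *der-2* by genotype under each condition, while *pek-1* is lowest in untreated N2 and *uggt-2* is at the lowest level of the 6.

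The segregase that extracts ubiquitylated proteins from the ER membrane consists of the ATPase CDC-48, encoded by *cdc-48.1* and *cdc-48.2*, and its cofactors UFD-1 and NPL-4. All 4 genes had negative log2 fold changes for mutants over N2, from -0.37 to -0.06 at 20 °C and from -0.42 to -0.15 after heat shock, and all stayed below the median of all genes with RLE factors and with untreated N2 replicate 3 as reference. At 20 °C *cdc-48.2* was positive without untreated N2 replicate 1 (0.05), and with the reference of TMM kept *cdc-48.1*, *cdc-48.2* and *ufd-1* were. After heat shock *cdc-48.2* stood at 0.0051 without heat-shocked N2 replicate 2. None of the 4 was called by edgeR with all 12 libraries and the reference library it chose. *cdc-48.1* (WBGene00007352, chromosome II, 10560036 to 10563407), the highest per length, had 592, 813 and 545 CPM in heat-shocked mutants and 539, 816 and 909 CPM in heat-shocked N2, and 725, 703 and 635 CPM in untreated mutants and 1033, 923 and 349 CPM in untreated N2. The N2 libraries spanned the mutant values since heat-shocked N2 replicate 1 and untreated N2 replicate 3 were low and the others high. *npl-4.1* was picked out after its values were seen. Its mutant libraries lay below all N2 libraries after heat shock, at 119.7, 141.99 and 139 CPM in mutants and 172, 183 and 179.9 CPM in N2 (log2 fold change -0.42 ± 0.19 SE, edgeR adjusted p = 0.258). In the mean of both genotype contrasts *npl-4.1* stood at -0.39 (edgeR adjusted p = 0.0550), and DESeq2 called it (adjusted p = 0.0106). edgeR called it with RLE factors (-0.45, adjusted p = 0.0389), with untreated N2 replicate 3 as reference of TMM (-0.56, adjusted p = 0.0216) and without heat-shocked mutant replicate 2 (-0.60, adjusted p = 0.0322). The last fit also had untreated N2 replicate 3 as reference. With heat-shocked N2 replicate 3 kept as reference, *npl-4.1* passed the threshold in 1 of the 11 fits that left out another library. Its neighbour *npl-4.2*, a close copy that may share reads with it, stood at -0.43 (edgeR adjusted p = 0.0414), so the split of reads between them is uncertain.

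The genotype comparison of this role depended on the N2 libraries that stood apart. Without untreated N2 replicate 3 and heat-shocked N2 replicate 1, the mean of both genotype contrasts called 11 members in place of 3, *calu-1* as higher and 10 as lower, among them all 4 segregase genes, *cup-2*, *der-2*, *cnx-1*, *ostb-1*, *hrdl-1* and *ire-1*. Calls over all genes also rose, to 3433 higher and 1866 lower of 18303, against 2720 and 959 of 17946 with all libraries. Then 34 of the 35 members lay below the median of all genes, against 26 of 35 with all libraries. At 20 °C the same omission called *calu-1* as higher and *npl-4.1*, *ufd-1* and *ostb-1* as lower. Over all genes it called 1783 higher and 581 lower, against 1120 and 106 with all libraries. For *cdc-48.1* the mean log2 fold change was -0.46 without these libraries (edgeR adjusted p = 0.0175) and -0.19 with them (standard error 0.24, edgeR adjusted p = 0.648). The libraries left out were chosen after their position had been seen, and the part of the low germ line marker levels in their values was not tested.

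The clearest response was that of *ckb-2* (WBGene00000512, chromosome III, 4367949 to 4370160), which encodes a choline kinase, an enzyme of phosphatidylcholine synthesis and so of ER membrane supply. In mutants it had 63.9, 63.4 and 55.4 CPM after heat shock and 16.12, 13.8 and 13.03 CPM without, and in N2 it had 51.2, 81.8 and 66.1 CPM after heat shock and 17.8, 19.6 and 30.0 CPM without. All heat-shocked libraries lay above all untreated ones, also across genotypes. The rise was 4.26-fold in mutants (log2 fold change 2.09 ± 0.24 SE, edgeR adjusted p = 0.00194) and 2.96-fold in N2 (log2 fold change 1.56 ± 0.24 SE, edgeR adjusted p = 0.00640), and over both genotypes the log2 fold change was 1.83 (standard error 0.17, edgeR adjusted p = 8.9e-05). The rise in mutants minus that in N2 was 0.52 on the log2 scale (standard error 0.33, edgeR adjusted p = 1.00), so a difference between the genotypes was not shown. In mutants the call held in all 12 fits that left out a library, with log2 fold changes from 2.02 to 2.17. In N2 it was lost without untreated replicate 2 (log2 fold change 1.41, edgeR adjusted p = 0.0524) and in a fit of the N2 libraries alone (1.49, edgeR adjusted p = 0.0885). Without untreated replicate 2 edgeR took untreated N2 replicate 3 as reference of TMM. With heat-shocked N2 replicate 3 kept as reference, the N2 call held in all 11 fits that left out another library (1.39 to 1.83).

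At 20 °C *ckb-2* was at 16.12, 13.8 and 13.03 CPM in mutants, below all untreated N2 libraries at 17.8, 19.6 and 30.0 CPM, of which replicate 3 was the highest. The log2 fold change was -0.65 (-0.78 relative to the median of all genes) and was not called by edgeR (adjusted p = 0.110). DESeq2 called it (log2 fold change -0.74, adjusted p = 0.0320), and so did edgeR with untreated N2 replicate 3 as reference of TMM (-0.86, adjusted p = 0.0477). The value was -0.36 once untreated N2 replicate 3 was left out (edgeR adjusted p = 0.240) and -0.98 once untreated N2 replicate 1 was (edgeR adjusted p = 0.0671). The latter fit also had untreated N2 replicate 3 as reference of TMM. With heat-shocked N2 replicate 3 kept as reference, the value ran from -0.79 to -0.38 over 11 fits that left out another library. After heat shock the genotypes overlapped (log2 fold change -0.12, edgeR adjusted p = 0.860).

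For comparison, 35 further ER stress and secretory genes were tested of 41 listed. By edgeR, at 20 °C 2 of them were higher in mutants than in N2, *lips-11* and *warf-1*, and none was lower, and after heat shock *lips-11* alone was higher. With heat shock *lips-11* was higher in mutants, *lips-11* and *hsp-4* were higher in N2, and none was lower in either. *hsp-4*, which encodes an ER HSP70 chaperone (BiP) and is the usual reporter of the UPR in *C. elegans*, had 822, 858 and 630.4 CPM in heat-shocked mutants and 329, 350.0 and 332 CPM in untreated mutants, and 649, 1045 and 1284 CPM in heat-shocked N2 and 446, 398 and 223 CPM in untreated N2. Its groups were apart in both genotypes. The log2 fold change was 1.19 in mutants (edgeR adjusted p = 0.107) and 1.48 in N2 (edgeR adjusted p = 0.0301), and the interaction was -0.29 (edgeR adjusted p = 1.00). In N2 the call was lost with untreated N2 replicate 3 as reference of TMM (1.39, edgeR adjusted p = 0.0527) and with the N2 libraries alone (1.39, edgeR adjusted p = 0.287), and it held in 4 of 12 fits that left out a library. In the fit of mutants alone with the replicate block, chosen after seeing the data, *hsp-4* was called with heat shock (1.20, edgeR adjusted p = 0.00191). For *lips-11* the calls held in 12 of 12 fits with a library left out between genotypes at 20 °C, 6 of 12 after heat shock, 6 of 12 with heat shock in mutants and 12 of 12 in N2, and that of *warf-1* at 20 °C in 10 of 12. The heat shock call of *lips-11* in mutants was also lost with the replicate block over all 12 libraries (2.15, edgeR adjusted p = 0.0623) and held in mutants alone with the block (2.16, edgeR adjusted p = 0.00441). *hsp-3*, the gene of the other ER HSP70, had 0.31 and 0.46 for heat shock in mutants and in N2 (edgeR adjusted p = 1.00 and 0.717). In the mean of both genotype contrasts 3 of the 35 were higher in mutants (*lips-11*, *warf-1* and *atf-4*) and 3 were lower (*rtcb-1*, the ligase that joins spliced *xbp-1* mRNA, *manf-1*, a secreted ER stress protein, and *npl-4.2*). The 7 translocon and signal peptidase genes of the list had log2 fold changes with heat shock from -0.33 to -0.05 in mutants and from -0.43 to -0.01 in N2.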

How the data were processed

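Poly-A RNA from whole day 1 adults was sequenced on an Illumina NovaSeq. Per the labels and the study's methods, the authors checked reads with FastQC, aligned them with HISAT2 to WBcel235 and counted reads per gene with HTSeq, and the deposited values are raw counts with no normalization. Versions, the annotation release and the strand setting are not given in the sources used here. Gene positions and exon lengths were taken from Ensembl release 115 of WBcel235, the build of the files, so a level per kilobase refers to summed exon length.

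All 12 libraries were fitted together in edgeR 4.0.16 (R 4.3.3) with TMM factors, filterByExpr, robust quasi-likelihood dispersion and 7 contrasts, with p-values adjusted by Benjamini-Hochberg over 17946 genes. Of the 35 members, 35 passed the filter. No covariate was used. The members and the gene lists were chosen with earlier results of these data known. Members called in a comparison, the 4 sensors and, in each role, the member with the highest level per kilobase were to be given in full, the others by range. Alternatives were DESeq2 1.42.0, RLE factors, no filter on low counts, no robust estimation, a fit of the compared groups alone, a log2 fold change limit of 1, a replicate block and leaving out each library. Another TMM reference, leave-outs with the reference kept, the omission of library pairs and the fit of mutants alone with a replicate block were chosen after seeing the data. Replicate numbers occur in all groups. Deviations from the group mean correlated between same-numbered heat-shocked and untreated mutant libraries at 0.342, 0.336 and 0.199, and at -0.363, 0.218 and -0.316 in N2, so the numbers were taken as pairs only within mutants. Between differently numbered mutant libraries the values ran from -0.297 to -0.0275. In N2, heat-shocked replicate 1 and untreated replicate 3 reached 0.536, so a correlation of this size does not by itself show pairing. Replicates differed by more than counting noise, so none was merged. The scripts were tested on simulated counts.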

Additional observations from a re-analysis of the deposited data

How the results depend on the processing

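Counts of members called were 1 in mutants against N2 at 20 °C, 0 after heat shock, 1 with heat shock in each genotype, 0 for the interaction, 3 for the mean genotype contrast and 1 for the mean heat shock contrast. Under the alternatives run, no member that was called, or had an unadjusted p under 0.05, changed direction in that comparison. The members' heat shock medians did without single libraries, as did signs of uncalled genes. Counts over all genes, higher then lower, follow in parentheses. RLE factors left 3 calls in the mean genotype contrast (2491 and 1203), with *npl-4.1* in place of *calu-1*. DESeq2 called 2 at 20 °C (1940 and 615) and 3 with heat shock in N2 (360 and 170). It called 5 in the mean genotype contrast (3228 and 1770) and 3 in the mean heat shock contrast (568 and 461). Without a filter on low counts the mean genotype contrast called 1 (2282 and 634). With only the compared groups fitted the counts were 0 at 20 °C (329 and 12) and 0 with heat shock in N2 (88 and 24). Requiring an absolute log2 fold change of at least 1 left 0 at 20 °C (992 and 46) and 0 in the mean genotype contrast (1826 and 191). With untreated N2 replicate 3 as reference of TMM the mean genotype contrast called 5 (2103 and 1935).

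Without untreated N2 replicate 3 and heat-shocked N2 replicate 1 the counts were 4 at 20 °C, 11 in the mean genotype contrast and 3 in the mean heat shock contrast. Over all genes that fit called 1783 higher and 581 lower, 3433 and 1866, and 327 and 261. Without replicate 1 of both mutant groups the counts of members were 0, 0 and 2. Over all genes that fit called 253 higher and 31 lower at 20 °C. Leaving out each library in turn gave 0 to 2 at 20 °C, 0 to 1 with heat shock in N2, 1 to 1 with heat shock in mutants, 0 to 6 in the mean genotype contrast and 1 to 2 in the mean heat shock contrast. With the reference of TMM kept, the ranges were 0 to 2, 1 to 1, 1 to 1, 0 to 5 and 1 to 2. The cause of these shifts was not tested, except that 8 of the 12 leave-outs changed the TMM reference to untreated N2 replicate 3.

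With the replicate block over all 12 libraries the counts of members were 1 at 20 °C and 2 in the mean genotype contrast, where *cup-2* lost its call (log2 fold change -0.40, edgeR adjusted p = 0.0526). Over all genes the block gave 1018 higher and 77 lower at 20 °C, and 2539 and 893 in the mean genotype contrast. Mutants alone with the replicate block, a fit chosen after seeing the data, gave 2 members for heat shock, *ckb-2* and *trap-2*.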
